A study of Mus musculus with 12 samples.

Results

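The genes described here encode the proteins of the mitochondrial ribosome (mitoribosome) and were taken as every transcript whose symbol begins with Mrpl or Mrps followed by a digit. This rule found 78 of the 15803 transcripts with a read in any library, 49 named Mrpl and 29 named Mrps, and all 78 were listed in all 12 libraries. The libraries were ribosome profiling (Ribo-seq) and RNA-seq of KPC cells, a mouse pancreatic ductal adenocarcinoma line, after PBS or after 6 h or 21 h of 20 μM cisplatin (Cis), with 2 libraries per assay and group. All groups share the line's engineered alleles, mutant Trp53 among them, which were switched on by Cre under the Pdx1 promoter of the pancreatic lineage. Cis is a platinum drug that forms crosslinks in DNA. The labels name the control libraries as without treatment. By the study's methods PBS was given for 6 or 21 h, as Cis was, so the controls are called PBS here. The labels do not say which time the PBS libraries had or whether the 2 libraries of a group came from separate cultures. The p-values therefore measure the spread between these libraries, which may be technical. Of the 7 markers of ductal epithelium, Krt8 (3214 to 4949 RPKM), Krt18, Krt19 and Cdh1 had at least 88.3 RPKM in every footprint library. Krt7 (9.19 to 21.9 RPKM) and Sox9 (11.1 to 30.9) were low, and Epcam was near 0 at 0.287 to 1.83 RPKM. Of the markers of leukocytes, macrophages, endothelium, fibroblasts and acinar cells, only Prss2 exceeded 0.740 RPKM in footprints, reaching 2.60. Footprint libraries held 3375480 to 5204127 reads and RNA libraries 1985344 to 2901692, of which Lars2, Tmem38b and Mettl26 took 51.8% to 56.6%. The median member had 185.5 to 268.5 reads in a footprint library and 43.0 to 65.0 in an RNA library, and all 78 passed the filter on low values in both assays.

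The mitoribosome sits in the mitochondrial matrix and makes the hydrophobic core subunits of the respiratory chain and of ATP synthase, which are encoded by mitochondrial DNA. Its rRNAs also come from mitochondrial DNA, but its proteins are encoded in the nucleus, translated by cytosolic ribosomes and imported. The footprints measured here are therefore those of cytosolic ribosomes on the mRNAs of mitoribosomal proteins, and they do not report translation inside mitochondria. Many of these proteins descend from bacterial ribosomal proteins, and others were gained during mitochondrial evolution.

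By known structure, 51 of the 78 belong to the large subunit, which forms peptide bonds, and 26 to the small subunit, which reads the mRNA. Mrps18a and Mrps30 carry small subunit names but sit in the large subunit, and Mrps36 is now placed in the oxoglutarate dehydrogenase complex. Bacterial homologues numbered 46 and mitochondria-specific proteins 31. Mitoribosomal proteins under other names, such as Dap3, were kept apart as a list of 5.

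To show the promoters that these genes share, RefSeq windows of 300 bases were used, 250 before and 50 after the start in build GRCm38.p6. A window was found for 69 members, with 75 windows in all. Motifs were searched on both strands. The NRF1 motif is that of the nuclear respiratory factor known to drive nuclear genes of mitochondrial function. The ETS motif is CCGGAAG, bound by GABP among others, and the YY1 motif is AAGATGGC. The ETS motif was found in 34.7% of member windows, against 19.0% of windows of the genes tested in footprints and 8.86% of all windows. The YY1 motif was found in 16% of member windows, against 4.79% and 2.75%, and the NRF1 motif in 17.3%, against 10.8% and 4.6%. The SP motif GGGCGG was found in 52.0% of member windows, against 64.3% and 35.7%. Among member windows and those of the genes tested, CCAAT was found in 40.0% and 38.3%, TATAAA in 6.67% and 7.29%, the E-box CACGTG in 9.33% and 10.2%, and TGACGTCA in 2.67% and 3.02%. Matches of different motifs were counted separately, also where they overlapped. A match is a stretch of letters and was not shown to be bound in these cells. No p is given for these shares.

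Windows that carry these motifs follow, 5′ to 3′ on the strand of the gene, with NRF1, ETS and YY1 matches in capitals. Mrpl45 (chr11:97315466-97315765, plus strand) has 3 NRF1 matches, and Mrpl32 (chr13:14612988-14613287, minus strand) has NRF1 and YY1 matches. Mrpl49 (chr19:6057706-6058005, minus strand) rose most in footprints, and Mrps27 (chr13:99344536-99344835, plus strand) is one of the 6 members that fell. Mrps11 (chr7:78782881-78783180, plus strand) starts 42 bases from Mrpl46, which lies head to head with it, and their windows share 141 bases.
Mrpl45: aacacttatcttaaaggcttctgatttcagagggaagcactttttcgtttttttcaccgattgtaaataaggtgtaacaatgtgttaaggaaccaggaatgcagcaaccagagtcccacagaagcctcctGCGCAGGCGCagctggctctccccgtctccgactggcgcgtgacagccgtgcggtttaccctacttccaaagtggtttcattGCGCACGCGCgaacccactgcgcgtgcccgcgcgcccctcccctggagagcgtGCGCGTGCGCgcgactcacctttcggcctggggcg
Mrpl32: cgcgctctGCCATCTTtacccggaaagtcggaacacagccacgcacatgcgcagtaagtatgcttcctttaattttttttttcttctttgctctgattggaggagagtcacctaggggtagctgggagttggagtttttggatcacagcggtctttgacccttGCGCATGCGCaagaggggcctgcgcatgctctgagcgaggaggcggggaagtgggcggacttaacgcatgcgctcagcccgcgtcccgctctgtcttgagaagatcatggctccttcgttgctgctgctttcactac
Mrpl49: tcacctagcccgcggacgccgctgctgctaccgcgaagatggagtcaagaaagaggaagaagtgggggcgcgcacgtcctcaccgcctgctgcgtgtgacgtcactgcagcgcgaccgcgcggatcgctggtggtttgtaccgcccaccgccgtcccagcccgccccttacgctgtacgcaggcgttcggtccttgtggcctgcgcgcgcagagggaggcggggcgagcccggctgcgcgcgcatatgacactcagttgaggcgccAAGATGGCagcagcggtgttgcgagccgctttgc
Mrps27: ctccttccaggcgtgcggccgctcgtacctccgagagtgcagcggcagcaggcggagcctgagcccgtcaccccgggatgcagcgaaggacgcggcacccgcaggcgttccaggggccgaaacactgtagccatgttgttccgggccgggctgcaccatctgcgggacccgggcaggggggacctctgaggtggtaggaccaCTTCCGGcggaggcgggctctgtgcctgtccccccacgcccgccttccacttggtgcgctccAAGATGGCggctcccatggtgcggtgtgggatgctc
Mrps11: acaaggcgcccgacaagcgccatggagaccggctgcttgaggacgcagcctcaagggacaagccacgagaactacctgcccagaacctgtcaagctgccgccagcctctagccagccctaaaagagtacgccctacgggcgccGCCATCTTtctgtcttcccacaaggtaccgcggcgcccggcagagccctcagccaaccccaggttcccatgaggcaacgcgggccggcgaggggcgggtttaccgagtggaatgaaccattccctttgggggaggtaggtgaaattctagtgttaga

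Within PBS, the mRNAs of the mitoribosome were not present in equal amounts. Levels are given as RPKM, reads per kilobase normalised to the reads of the library, with the coding sequence as length for footprints and the whole transcript for RNA, so the 2 assays do not share a scale. Over which region of the transcript the RNA reads were counted is not stated. The median member had 81.8 RPKM in footprints, with a range of 23.2 to 497, or 21.5-fold. In RNA the median was 12.2 RPKM, with a range of 2.40 to 67.9. The highest mean footprints were those of Mrpl13 (497 RPKM), Mrps33 (480), Mrpl35 (458), Mrps6 (387) and Mrpl51 (323), and the lowest those of Mrpl37 (23.2), Mrpl4 (27.7), Mrps12 (29.6), Mrpl57 (30.8) and Mrps15 (33.4). In RNA the highest means were those of Mrpl13 (67.9 RPKM), Mrpl52 (67.7), Mrpl18 (54.5), Mrpl12 (51.4) and Mrps18c (43.9), and the lowest those of Mrpl1 (2.40), Mrpl32 (3.03), Mrpl57 (3.23), Mrpl48 (3.42) and Mrps16 (3.63). Mrpl13 had the highest mean in both assays, but in RNA its libraries, at 63.1 and 72.7, lay on either side of those of Mrpl52, at 66.1 and 69.3. Mrpl52, among the highest in RNA, had 134 and 129 RPKM in footprints.

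The ratio of footprint RPKM to RNA RPKM in PBS, the translation efficiency (TE), had a median of 6.29 over the members and 3.44 over all transcripts tested. Its size depends on the region over which RNA reads were counted, so these are ratios of the deposited values. Mrpl35, a bacterial homologue of the large subunit, had the highest ratio, with 61.0 and 51.3 when footprint and RNA libraries of the same number were divided, a number that does not pair them. Mrps17 followed with 29.6 and 39.8, and Mrps25 with 31.2 and 33.4. The lowest ratios were those of Mrps15, with 1.29 and 1.32, Mrpl18, with 1.75 and 1.58, and Mrpl37, with 2.00 and 1.87. These genes are named because their ratios are the extremes.

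These ratios moved with the length of the untranslated parts of the transcript. Across the 78 members, the logarithm of the ratio correlated with that of transcript length over coding length with r = 0.75 and rho = 0.66, against r = 0.35 over 9292 transcripts tested in both assays. The 18 members whose transcript was at least 4 times as long as the coding sequence had a median ratio of 17.9, and the 34 members with less than 2 times had 4.86. Both axes contain the transcript length, since RNA reads were divided by it. With footprint reads per RNA read in place of the RPKM ratio, r was -0.15. Genes are not independent replicates, and no p is given.

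**Figure D1:**
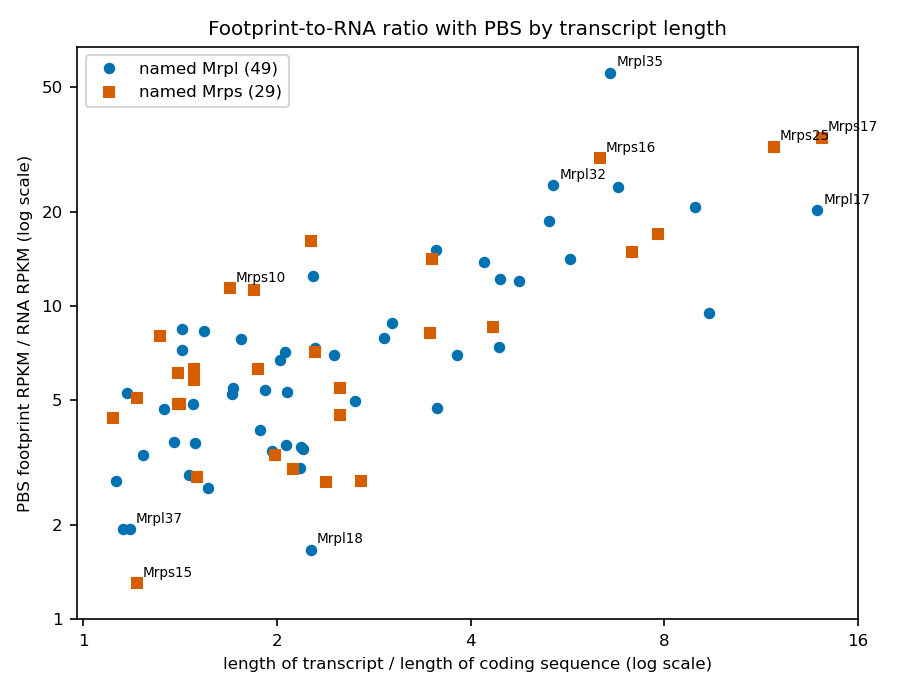
PBS footprint RPKM over RNA RPKM (y axis, log scale) against the ratio of transcript length to coding length (x axis, log scale) for the 78 genes, 1 point per gene, with Mrpl and Mrps names in different colours. Mrpl35 stands highest at 55.8 and Mrps15 lowest at 1.31, and the points rise from left to right, with r = 0.75 on the log scales.

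After 6 h of Cis, limma called few mitoribosomal mRNAs. The comparison asked for an early effect on translation. In limma on log2(scaled RPKM + 0.5), 1 member rose and 1 fell in footprints at an adjusted p under 0.05, against 1.05% of all 10383 transcripts higher and 0.992% lower, 2.04% in all. The median change of the members was 0.05 (log2), and that of all transcripts -0.01. Both calls depended on single libraries. The PBS and 6 h libraries did not overlap in 46 of the 78 members, against 54.4% of all transcripts. By voom, limma's model for counts, on reads recovered from the RPKM, 9 members were called, 6 higher and 3 lower, against 12.3% of all transcripts, and they included Mrps10 and Mrpl15.

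Mrps10, the mitochondrial homologue of bacterial S10 in the head of the small subunit, had 289 and 237 RPKM in PBS footprints, 123 and 124 at 6 h, and 319 and 265 at 21 h. The 6 h libraries lay far below all the others, and the 21 h libraries overlapped with those in PBS. The change at 6 h was -1.09 ± 0.12 (log2 ± SE, n = 2 per group, limma adjusted p = 0.0065), and from 6 h to 21 h it was 1.21 ± 0.12 (adjusted p = 0.000288). In RNA, Mrps10 had 21.9 and 24.0 RPKM in PBS, 23.3 and 17.4 at 6 h, and 22.8 and 30.5 at 21 h, and the groups overlapped. The fall at 6 h was lost without PBS replicate 1, without either 6 h library and without the eBayes trend of limma. The rise from 6 h to 21 h was kept under all 9 other settings and without each library. It uses the same 6 h libraries as the fall, so it is no separate support for that fall.

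Mrpl15, a core protein of the large subunit, had 86.0 and 98.9 RPKM in PBS footprints, 132 and 141 at 6 h, and 97.8 and 97.7 at 21 h. Its 6 h libraries were above all the others, with a change of 0.54 ± 0.10 (limma adjusted p = 0.0407) at 6 h and -0.50 ± 0.10 (adjusted p = 0.00871) from 6 h to 21 h. It was no longer called at 6 h without either PBS or either 6 h library. In RNA it had 6.86 and 8.53 RPKM in PBS and 8.27 and 6.90 at 6 h.

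In RNA at 6 h, limma called none of the 78 members and none of 9443 transcripts (0.0%). At an unadjusted p under 0.05 there were 10 members, 12.8% against 11.5% of all transcripts, and voom called 0 members, against 2.43%. The lowest p belonged to Mrpl22, a protein of the exit tunnel, with 11.3 and 13.8 RPKM in PBS, 21.6 and 24.0 at 6 h, and 19.6 and 20.5 at 21 h, and a difference at 6 h of 0.91 ± 0.15 (adjusted p = 0.16). Mrps34 differed by 0.40 ± 0.12 (adjusted p = 0.304) and Mrpl44 by 0.71 ± 0.23 (adjusted p = 0.312). The PBS and 6 h libraries of these 3 genes did not overlap, which held for 27 of the 78 members and for 44% of all transcripts.

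After 21 h of Cis, more mitoribosomal mRNAs rose than fell in footprints, as also among all transcripts from genes of the length that most members have. The question was which of them followed the wider response. In limma, 18 of the 78 rose and 6 fell at an adjusted p under 0.05. Of all 10383 transcripts, 18.9% rose and 20.2% fell, 39.1% in all. The rising share of the members, 23.1%, was near this background and the falling share, 7.69%, was below it. This background includes long genes, whereas 72 members have a genomic span, from start to end of the gene, under 30 kb. All transcripts tested with a span under 5 kb rose in 27.7% and fell in 8.67%. For 5 to 10 kb these shares were 28.7% and 7.40%, and for 10 to 30 kb 26.8% and 7.76%. Of the members in these classes 7 of 25, 7 of 30 and 4 of 17 rose, and 1, 2 and 0 fell. The median change of the members was 0.08 (log2), against 0.01 for all transcripts, and 48 of 78 members had a change above 0. In the same span classes the member medians were 0.08, 0.15 and 0.12, below those of all transcripts tested, 0.19, 0.21 and 0.17. The shares of members below 0 were 28.0%, 40.0% and 29.4%, against 33.4%, 32.1% and 34.4% of all transcripts tested. The differences in these classes were not tested. Of these 24 calls, 12 were kept under all 9 other settings and without each library in turn, namely the rises of Mrpl9, Mrpl10, Mrpl32, Mrpl45, Mrpl49, Mrps2, Mrps23 and Mrps31 and the falls of Mrpl48, Mrpl52, Mrps27 and Mrps28. Each of the other 12 calls was lost under at least 1 of these. The comparison shares its PBS libraries with that at 6 h. The PBS and 21 h libraries did not overlap in 48 of the 78 members, against 70.3% of all transcripts. Separate libraries are therefore given below as a description of single genes and not as further support.

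**Figure D2:**
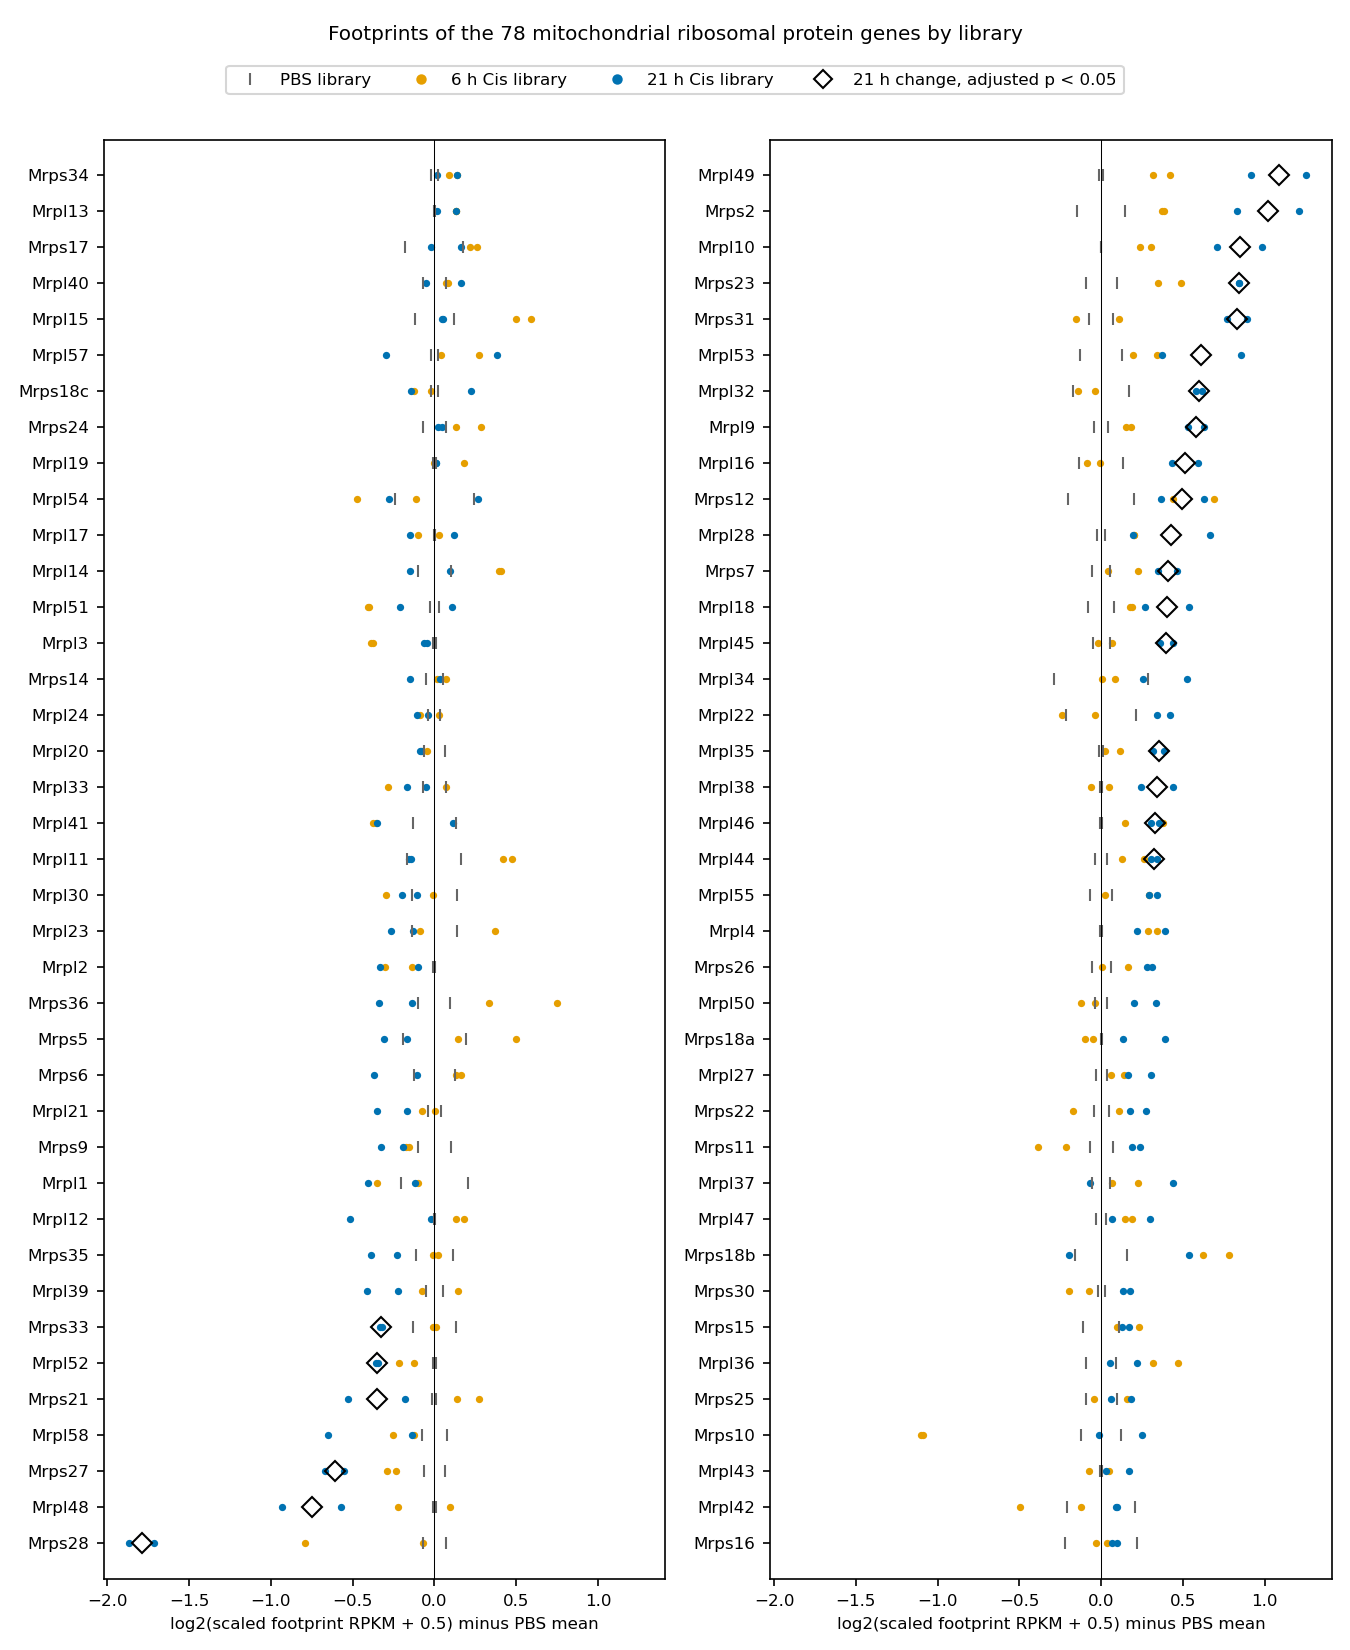
Footprints of all 78 genes, ordered by their change at 21 h from the lowest (bottom left) to the highest (top right), as log2(scaled RPKM + 0.5) minus the PBS mean. Grey ticks are PBS libraries, orange points 6 h libraries and blue points 21 h libraries, and diamonds mark the 18 rises and 6 falls called at 21 h, from -1.79 for Mrps28 to 1.09 for Mrpl49, while Mrps10 stands out for its 6 h libraries.

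Among the proteins of the large subunit, 13 of 51 rose and 2 fell, against 18.9% and 20.2% of all transcripts. Mrpl49, a mitochondria-specific protein, had 74.5 and 73.7 RPKM in PBS footprints, 100 and 93.4 at 6 h, and 144 and 182 at 21 h. The 3 groups did not overlap, and the change at 21 h was 1.09 ± 0.12 (log2 ± SE, n = 2 per group, limma adjusted p = 0.000282). Its gene overlaps Syvn1 in the annotation, and since no source used here gives the strand setting of the counting, reads of the pair may be mixed. The same limit holds for Mrpl18, Mrpl44, Mrpl48, Mrpl53, Mrps2, Mrps7 and Mrps23, also called in footprints at 21 h, which each overlap a protein-coding gene.

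Mrpl10, which anchors the flexible stalk that recruits translation factors, had 58.2 and 56.8 RPKM in PBS, 71.9 and 68.6 at 6 h, and 117 and 96.5 at 21 h, a change of 0.85 ± 0.11 (limma adjusted p = 0.000691). Mrpl53, a neighbour of the stalk, had 59.7 and 69.7 RPKM in PBS and 85.8 and 120 at 21 h, with 0.61 ± 0.16 (adjusted p = 0.0176). The call of Mrpl53 was lost without PBS replicate 1 and without 21 h replicate 2. The other 3 genes of the stalk and its base were not called. Mrpl12, the stalk protein itself, had 185 and 179 RPKM in PBS and 131 and 184 at 21 h, with a difference of -0.27 ± 0.14 (adjusted p = 0.169).

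Mrpl32, which is cleaved by a membrane protease on import before the ribosome is assembled, had 83.6 and 64.2 RPKM in PBS, 72.2 and 67.1 at 6 h, and 113 and 115 at 21 h. The rise of 0.60 ± 0.12 (limma adjusted p = 0.00561) came after 6 h, since the 6 h libraries lay within the PBS range. Mrpl9, a bacterial homologue, had 71.5 and 65.4 RPKM in PBS, 76.9 and 78.5 at 6 h, and 102 and 108 at 21 h, a change of 0.58 ± 0.09 (adjusted p = 0.00174). Mrpl45, which lies at the exit tunnel and holds the ribosome at the inner membrane, had 106 and 96.1 RPKM in PBS and 141 and 133 at 21 h, a change of 0.40 ± 0.09 (adjusted p = 0.00892). For all 3 genes both 21 h libraries were above every other library.

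The 2 falls in the large subunit were those of Mrpl48 and Mrpl52. Mrpl48, a mitochondria-specific protein of the central protuberance, had 82.6 and 81.7 RPKM in PBS, 88.6 and 71.1 at 6 h, and 56.6 and 43.9 at 21 h, a change of -0.75 ± 0.15 (limma adjusted p = 0.00435). It overlaps Rab6a in the annotation and has a named pseudogene copy, so its reads are less certain. Mrpl52 had 134 and 129 RPKM in PBS and 106 and 105 at 21 h, a change of -0.35 ± 0.09 (adjusted p = 0.0118). By place, 3 of the 8 central protuberance genes rose and 1 fell. Of the 5 stalk and stalk base genes 2 rose, and of the 6 exit tunnel genes 1 rose. These sets are small, and of all transcripts 18.9% rose and 20.2% fell.

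Among the proteins of the small subunit, 5 of 26 rose and 4 fell, against 18.9% and 20.2% of all transcripts. Mrps2, a bacterial homologue, had 60.8 and 48.2 RPKM in PBS footprints, 71.5 and 70.9 at 6 h, and 99.4 and 129 at 21 h, a change of 1.02 ± 0.15 (limma adjusted p = 0.000978). Mrps23, a mitochondria-specific protein, had 79.3 and 88.1 RPKM in PBS, 118 and 108 at 6 h, and 155 and 154 at 21 h, a change of 0.84 ± 0.10 (adjusted p = 0.000406). In both genes the libraries were ordered PBS, 6 h and 21 h without overlap. Mrps31, also mitochondria-specific, had 39.5 and 42.8 RPKM in PBS, 45.0 and 37.3 at 6 h, and 72.5 and 78.5 at 21 h, a change of 0.83 ± 0.13 (adjusted p = 0.00129), with the 6 h libraries on either side of those in PBS.

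Mrps28 had the strongest fall of all members. It had 74.7 and 66.1 RPKM in PBS footprints, 67.6 and 40.9 at 6 h, and 19.4 and 21.5 at 21 h, a change of -1.79 ± 0.21 (limma adjusted p = 0.000353) to 0.289 of the PBS level. The 21 h libraries were below all the others, and the 6 h libraries differed from each other. Mrps27, a pentatricopeptide repeat protein that binds RNA, had 39.8 and 42.4 RPKM in PBS, 33.9 and 35.2 at 6 h, and 26.4 and 28.5 at 21 h, a change of -0.61 ± 0.12 (adjusted p = 0.00384), and its 3 groups did not overlap. The remaining falls were smaller. Mrps21 had 268 and 266 RPKM in PBS and 190 and 241 at 21 h, a change of -0.35 ± 0.12 (adjusted p = 0.0426). Mrps33 had 442 and 518 RPKM in PBS and 390 and 393 at 21 h, a change of -0.33 ± 0.10 (adjusted p = 0.0261). The calls of Mrps21 and Mrps33 were each lost when 1 library was left out, in 5 of the 6 cases.

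The other rises were those of Mrpl16 (0.51), Mrps12 (0.50), Mrpl28 (0.43), Mrps7 (0.41), Mrpl18 (0.40), Mrpl35 (0.35), Mrpl38 (0.34), Mrpl46 (0.33) and Mrpl44 (0.33), with adjusted p from 0.00666 for Mrpl35 to 0.0454 for Mrps12 in limma. The call of Mrpl44 was lost whichever library was left out. By origin, 10 of 46 bacterial homologues rose and 2 fell, and 8 of 31 mitochondria-specific genes rose and 4 fell. Of all transcripts, 18.9% rose and 20.2% fell. Median changes in the 2 sets by origin were 0.06 and 0.12 (log2). The difference between the sets was not tested.

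In footprints at 21 h, the 6 genes with a span over 50 kb were all below 0. Genomic span, the distance from a gene's start to its end, was taken from RefSeq as a length. The longest member was Mrps28 with 122 kb, followed by Mrps27 (70.8 kb), Mrpl48 (62.5 kb), Mrpl1 (57.2 kb), Mrps9 (54.5 kb) and Mrps6 (53.9 kb). Of the 6, 3 were called lower in footprints, and their median was -0.44 (log2). Of the 2637 transcripts tested with such a span, 84.7% were below 0 and 51.2% were called lower, with a median of -0.58, and the share of the long members called lower, 50%, was near that background. In RNA at 21 h 4 of the 6 were below 0 and 1 was called lower, against 78.1% and 31.3% of 2360 such transcripts, while Mrps6 was at 0.35 and Mrps9 at 0.08, neither called. The other 72 members were under 30 kb, and among them span and footprint change correlated with r = -0.14, against r = -0.45 over all 78. These correlations are across genes, which are not independent replicates.

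**Figure D3:**
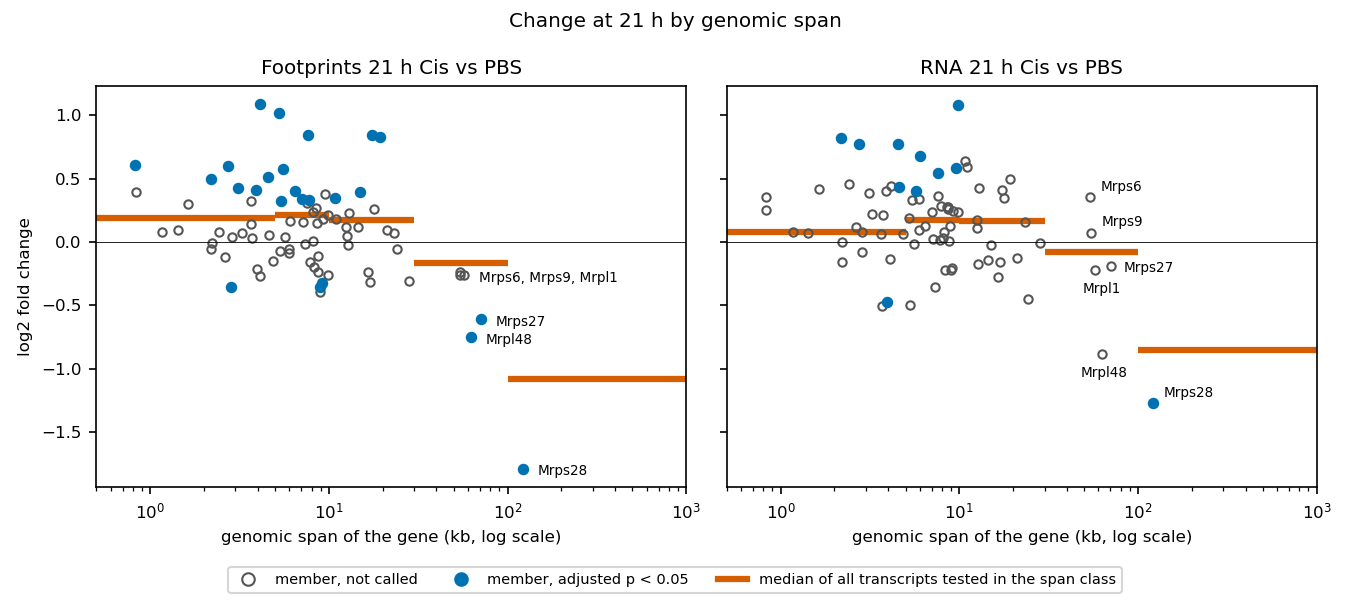
Change at 21 h against PBS (y axis, log2) by genomic span (x axis, kb, log scale) in footprints (left) and RNA (right), with 1 point per member, filled where called, and bars for the median of all transcripts tested in the same span class. Mrps28 at 122 kb has the lowest point in both panels, at -1.79 and -1.27, and the members under 30 kb spread on both sides of 0.

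Fewer members were called in RNA, where reads per member were fewer, at 21 h. In limma, 9 of 78 rose and 2 fell, against 11.6% and 12.2% of 9443 transcripts, 23.8% in all. All transcripts tested with a span under 5 kb rose in 14.3% and fell in 9.49%. For 5 to 10 kb these shares were 16.6% and 5.21%, and for 10 to 30 kb 16.9% and 4.16%. Of the members in these classes 4 of 25, 5 of 30 and 0 of 17 rose, and 1, 0 and 0 fell. The median of the members was 0.13 (log2), against 0.02 for all transcripts, and 54 of 78 were above 0. In the same span classes the member medians were 0.21, 0.21 and 0.11, and those of all transcripts tested 0.08, 0.18 and 0.16. Without scaling between libraries, 14 rose and 1 fell, and the median of all transcripts shifted to 0.10. Of these 11 calls only that of Mrps11 was kept under all 9 other settings and without each library, and each of the other 10 was lost without at least 1 library.

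Mrps11, a bacterial homologue of the small subunit, had 4.23 and 5.22 RPKM in PBS RNA, 5.72 and 6.97 at 6 h, and 11.4 and 10.9 at 21 h, a change of 1.08 ± 0.20 (log2 ± SE, n = 2 per group, limma adjusted p = 0.00462). These values rest on 11 and 16 reads in PBS and 28 and 24 at 21 h. In footprints it had 56.3 and 49.8 RPKM in PBS, 46.1 and 40.8 at 6 h, and 64.4 and 62.0 at 21 h, a difference of 0.22 ± 0.11 (adjusted p = 0.158). Mrpl46, whose start lies 42 bases away on the other strand, had 11.5 and 10.9 RPKM in PBS RNA and 11.4 and 12.7 at 21 h. Its RNA difference was 0.01 ± 0.17 (limma adjusted p = 0.964). In footprints Mrpl46 rose by 0.33 ± 0.11 (adjusted p = 0.0428), the same direction as the difference for Mrps11. This call of Mrpl46 was not among those kept under all other settings and without each library. Whether the 2 genes differed in their change was not tested.

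Mrps12, a protein of the decoding centre, had 11.5 and 8.20 RPKM in PBS RNA and 21.9 and 15.7 at 21 h, a change of 0.82 ± 0.22 (limma adjusted p = 0.0243). Mrpl16 had 11.2 and 9.79 RPKM in PBS and 18.8 and 19.8 at 21 h, a change of 0.77 ± 0.15 (adjusted p = 0.00629). Mrpl32 had 2.97 and 3.09 RPKM in PBS and 5.27 and 6.51 at 21 h, a change of 0.77 ± 0.25 (adjusted p = 0.0473). In all 3 genes the 21 h libraries were above those in PBS. The other rises were those of Mrps18b (0.68), Mrpl22 (0.58), Mrpl10 (0.55), Mrpl40 (0.43) and Mrps18c (0.41), with adjusted p from 0.0112 to 0.0412. The genes Mrps18b and Mrps18c are paralogues of Mrps18a, which was not called in RNA.

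Mrps28 fell in RNA as well, with 12.4 and 10.6 RPKM in PBS, 9.65 and 11.6 at 6 h, and 6.03 and 3.67 at 21 h, a change of -1.27 ± 0.25 (limma adjusted p = 0.00582) that rests on 24 and 24 reads in PBS and 11 and 6 at 21 h. The 6 h libraries overlapped with those in PBS, and the 21 h libraries were below all the others. The call was lost without PBS replicate 1. Mrpl2, which lies close to the peptidyl transferase centre, had 39.8 and 34.1 RPKM in PBS and 29.98 and 26.0 at 21 h, a change of -0.48 ± 0.14 (adjusted p = 0.0341) that was lost without scaling. Mrpl48 had 3.22 and 3.62 RPKM in PBS and 1.30 and 2.23 at 21 h, a difference of -0.88 ± 0.29 (adjusted p = 0.0504).

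Called in both assays at 21 h were Mrpl10, Mrpl16, Mrpl32 and Mrps12, which rose, and Mrps28, which fell. These 5 genes were 20.8% of the 24 footprint calls and 45.5% of the 11 RNA calls. The RNA change had the same sign in 21 of the 24 footprint calls, the exceptions being Mrpl9, Mrpl45 and Mrps21, and the footprint change had the same sign in 11 of the 11 RNA calls. Over all members the signs were the same in 62 of 78 (79.5%), against 77.2% of all transcripts tested in both assays. Across the 78 members the 2 changes correlated with r = 0.68 at 21 h and r = 0.19 at 6 h, against r = 0.81 and r = 0.39 over 9295 transcripts.

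**Figure D4:**
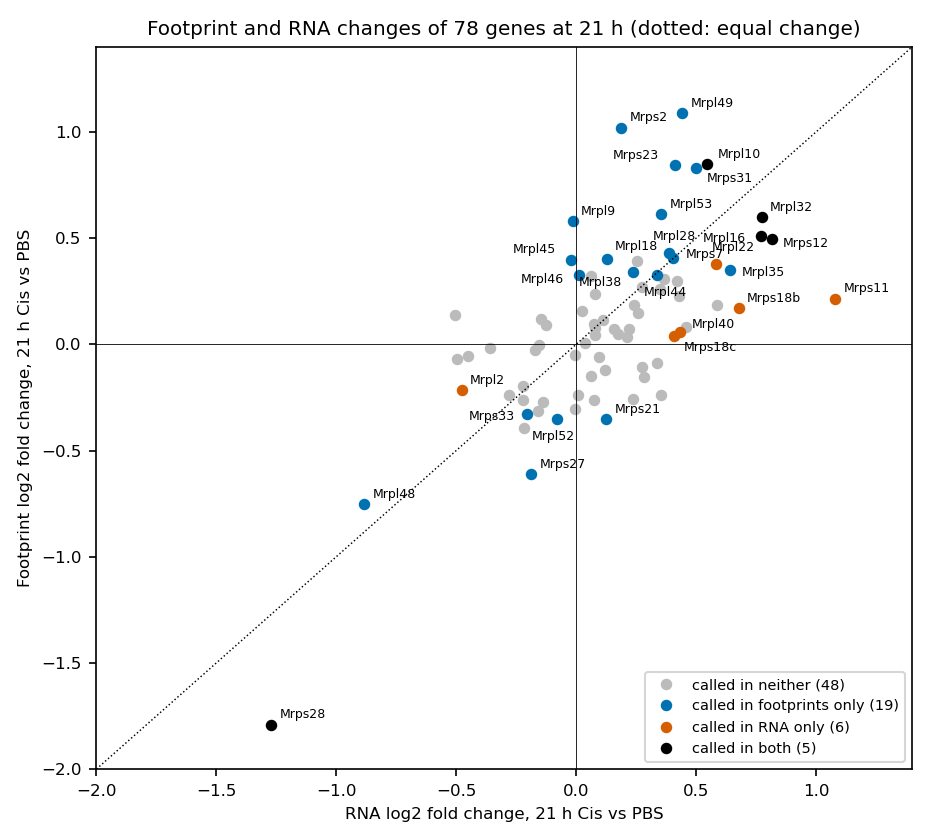
Footprint change (y axis) against RNA change (x axis), both log2 at 21 h against PBS, for the 78 genes, coloured by the assay in which each was called, with the dotted line marking equal change. The 5 genes called in both are black, with Mrps28 alone at the lower left, and Mrps2 and Mrpl49 lie above the line.

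No member passed the test in TE, the ratio of footprints to RNA, taken by the interaction of assay and treatment in limma over all 12 libraries. At 21 h 0 of 78 were called, against 0.409% of 9295 transcripts. At an unadjusted p under 0.05 there were 10 members, 12.8% against 12.7% of all transcripts, and voom called 1, Mrps2, against 1.62%. At 6 h 0 of 78 and 0.0% of all transcripts were called, with 9 members at an unadjusted p under 0.05, 11.5% against 7.64%, and 0 called by voom, against 0.151%. At 21 h the lowest p were those of Mrps2 with 0.83 ± 0.20 (adjusted p = 0.107), Mrps11 with -0.86 ± 0.21 (adjusted p = 0.107) and Mrps6 with -0.59 ± 0.18 (adjusted p = 0.195). At 6 h they were those of Mrpl22 with -1.05 ± 0.21 (adjusted p = 0.195), Mrps10 with -0.98 ± 0.22 (adjusted p = 0.253) and Mrps11 with -0.75 ± 0.21 (adjusted p = 0.346). The 95% intervals of the difference at 21 h ran from 0.39 to 1.27 (log2) for Mrps2 and from -1.32 to -0.41 for Mrps11. These intervals are not adjusted for the number of transcripts tested, and the 2 genes were picked for their low p. Neither was called. The median TE change of the members at 21 h was -0.06, against -0.04 for all transcripts.

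From 6 h to 21 h, 18 members rose and 11 fell in footprints, against 15.0% and 15.7% of all transcripts. Of these 29, 15 were called in the same direction at 21 h against PBS, a comparison that shares the 21 h libraries, and 14 were not. The largest rises were those of Mrps10 (1.21), Mrps31 (0.85), Mrpl49 (0.72), Mrpl32 (0.69), Mrps2 (0.64), Mrpl10 (0.58), Mrpl16 (0.56) and Mrpl22 (0.52), with adjusted p from 0.000288 to 0.0288 in limma. The largest falls were those of Mrps28 (-1.36), Mrps36 (-0.78), Mrpl48 (-0.69), Mrpl11 (-0.60), Mrps5 (-0.56), Mrps21 (-0.56), Mrpl15 (-0.50) and Mrpl14 (-0.43), with adjusted p from 0.00221 to 0.0301.

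Several of these falls followed high values at 6 h. Mrps36 had 122 and 136 RPKM in PBS footprints, 164 and 219 at 6 h, and 105 and 120 at 21 h. Mrpl11, at the base of the stalk, had 122 and 150 RPKM in PBS, 182 and 190 at 6 h, and 125 and 125 at 21 h. Mrpl14 had 187 and 159 RPKM in PBS, 229 and 231 at 6 h, and 160 and 189 at 21 h. In all 3 genes the 6 h libraries were above all the others. In RNA, 4 members rose from 6 h to 21 h, namely Mrps31 (0.80), Mrpl10 (0.57), Mrpl16 (0.51) and Mrpl53 (0.48), and Mrps28 (-1.23) and Mrpl2 (-0.53) fell, against 7.53% and 8.21% of all transcripts. Without scaling 12 rose and 1 fell, whereas leaving out 1 library gave 0 to 3 calls in all. None of the 6 calls was kept under all 9 other settings and without each library.

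Of the 78 members, 36 were called in none of the 6 comparisons of footprints or RNA. The matching share of all transcripts is not given here, so this count does not show a trait of these genes. They included Mrpl12 of the stalk, Mrpl13, the most abundant, and the small subunit proteins Mrps14, Mrps15 and Mrps17. Mrpl13 had 502 and 493 RPKM in PBS footprints, 550 and 551 at 6 h, and 518 and 558 at 21 h. A p that missed the threshold does not show that these levels were equal.

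The summed RNA level of the 78 genes was higher at 21 h than in PBS, with less difference in footprints. As a percentage of the PBS mean of scaled RPKM, the sum in footprints was 98.5 and 101 in PBS, 104 and 104 at 6 h, and 103 and 107 at 21 h. In RNA it was 102 and 98.5 in PBS, 104 and 109 at 6 h, and 112 and 111 at 21 h. The summed RNA of the 82 cytosolic ribosomal protein genes was lower at 21 h, with 101 and 98.7 in PBS, 106 and 103 at 6 h, and 87.7 and 83.3 at 21 h. In RNA at 21 h 38 of the 78 cytosolic genes tested fell and 1 rose, against 12.2% and 11.6% of all transcripts. The mitoribosomal sum as a percentage of the cytosolic sum in RNA was 3.07 and 3.05 in PBS, 3.01 and 3.22 at 6 h, and 3.92 and 4.09 at 21 h. In footprints it was 5.26 and 4.996 in PBS and 5.18 and 5.10 at 21 h, without such a shift. The smallest p of an exact permutation test with 2 libraries against 2 is 0.333, so no test of these sums was made. Scaling sets these sums relative to the median transcript, so they do not give amounts per cell. Bulk samples also cannot tell a lower level in every cell from a smaller share of cells with these mRNAs.

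**Figure D5:**
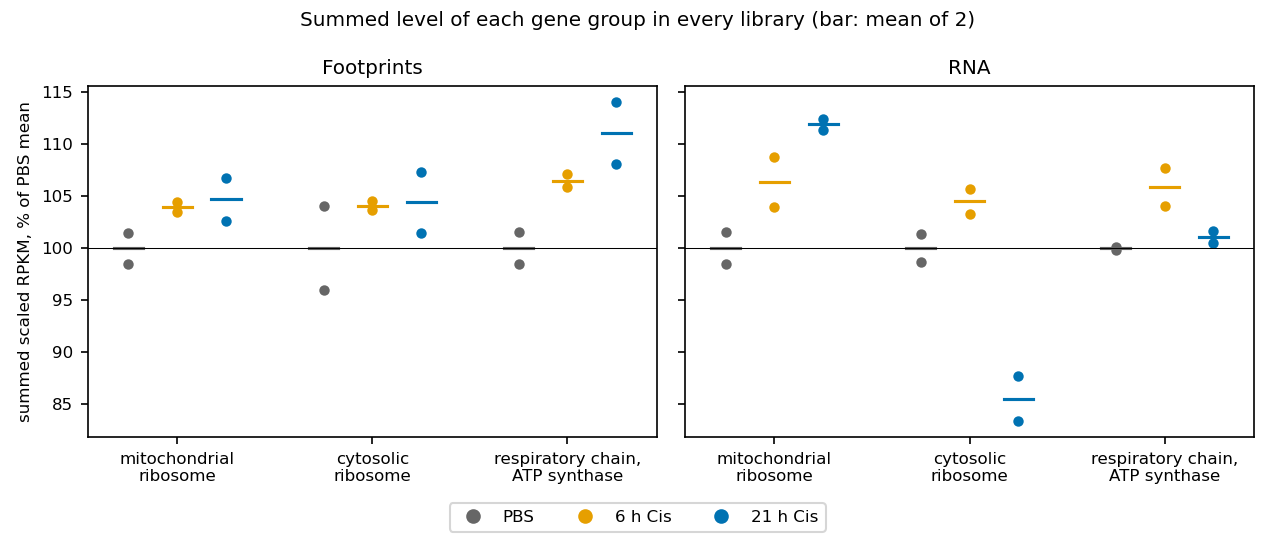
Summed scaled RPKM as a percentage of the PBS mean (y axis) for the 78 mitoribosomal, 82 cytosolic ribosomal and 80 respiratory chain and ATP synthase genes, with 1 point per library and a bar for the mean of 2, in footprints (left) and RNA (right). In RNA at 21 h the mitoribosomal sum is at 112 and 111 and the cytosolic sum at 87.7 and 83.3, and the y axis does not start at 0.

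Genes that build and run the mitoribosome were compared as lists. Of 25 assembly genes tested, 11 rose and 3 fell in footprints at 21 h, with a median change of 0.41 (log2), against 18.9% and 20.2% of all transcripts. Mrm3, which methylates the large mitochondrial rRNA, had 14.7 and 14.9 RPKM in PBS footprints, 22.1 and 20.3 at 6 h, and 33.1 and 35.6 at 21 h, a change of 1.15 ± 0.13 (limma adjusted p = 0.000303), and its groups did not overlap. In RNA, Mrm3 rose by 1.23 ± 0.23 (adjusted p = 0.00501). Eral1, a GTPase that chaperones the small subunit rRNA, rose by 0.73 ± 0.22 (adjusted p = 0.0288) in footprints and by 1.10 ± 0.26 (adjusted p = 0.015) in RNA. Mrm1, another rRNA methyltransferase, rose by 0.73 in footprints. The largest falls were those of Mettl15 (-2.21) and Tfb1m (-0.79), both methyltransferases of the small subunit rRNA. At 6 h only Mrm2 was called in this list, at 0.55.

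Of 15 mitochondrial translation factors tested, 2 rose and 3 fell in footprints at 21 h, with a median of -0.27. Of all transcripts, 18.9% rose and 20.2% fell. The initiation factor Mtif3 rose by 0.66 and the translational activator Taco1 by 0.54, while the recycling factor Mrrf (-0.78), the initiation factor Mtif2 (-0.75) and the elongation factor Tsfm (-0.41) fell. Mrrf had 118 and 124 RPKM in PBS footprints and 73.2 and 71.4 at 21 h. Of 14 genes of mitochondrial transcription and RNA processing, 3 rose, namely Trmt10c (0.58), Tfam (0.37) and Hsd17b10 (0.32), and 2 fell, namely Prorp (-1.25) and Lrpprc (-0.54). Trmt10c, Hsd17b10 and Prorp are the subunits of mitochondrial RNase P. In RNA at 21 h Trmt10c rose by 1.46 and Supv3l1 by 0.77.

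None of the 5 mitoribosomal proteins under other names (Aurkaip1, Chchd1, Dap3, Gadd45gip1 and Ptcd3) was called in footprints at 21 h by limma, with 0 at an unadjusted p under 0.05 and 0 by voom, and their changes ran from -0.15 for Ptcd3 to 0.23 for Aurkaip1. At 6 h limma called 0 of them, with 2 at an unadjusted p under 0.05, and voom called 2 higher, Aurkaip1 and Chchd1. From 6 h to 21 h Chchd1 fell by 0.46 in footprints (limma adjusted p = 0.00541), also called by voom. Of 79 nuclear genes of the respiratory chain and ATP synthase tested, 15 rose and 4 fell in footprints at 21 h. In RNA, 3 rose and 4 fell. Of all transcripts, 18.9% rose and 20.2% fell in footprints, and 11.6% rose and 12.2% fell in RNA. The medians of the respiratory chain and ATP synthase genes were 0.08 in footprints and 0.05 in RNA. Those of the mitoribosomal genes were 0.08 and 0.13, and the differences were not tested. As a percentage of the PBS mean, the sums of the 80 respiratory chain and ATP synthase genes at 21 h were 108 and 114 in footprints. In RNA these sums were 100 and 102.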

How the data were processed

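Ribosome footprints and RNA of KPC cells were sequenced in 12 libraries, each assay having 2 for each of PBS, 6 h and 21 h of Cis. The authors deposited RPKM values per transcript, with 1 transcript per gene and transcripts without reads left out. From the values, footprints are per kilobase of coding sequence and RNA per kilobase of transcript. Per the labels' processing notes, cutadapt, STAR and build GRCm39 were used, and the strand setting of the counting is not given in the sources used here. Each RPKM times its length was a whole multiple of 1 read (100% of values within 0.01), which gave reads and depth. Intervals for counts were not used, since PCR copies are not marked.

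In each assay separately, RPKM were divided by median-of-ratios factors, filtered at a mean of 1, and tested as log2(scaled RPKM + 0.5) with limma 3.58.1 (eBayes with trend, R 4.3.3) over all 3 groups, two-sided, with Benjamini-Hochberg adjustment over all 10383 (footprints), 9443 (RNA) or 9295 (TE) transcripts and a threshold of 0.05. Fold changes are on this log2 scale, which understates low genes. For TE, a model over both assays tested whether the effect of treatment differed between them. The fit was tested on simulated data. Python 3.11.15 (numpy 2.4.6, pandas 2.3.3) handled the tables. Alternatives were other pseudocounts, filters, scaling and models, a replicate block, voom on recovered reads and leaving out each library.

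The members and lists were chosen with earlier results of these data known, so they are no independent support. Named were all called members of a direction with 10 or fewer, otherwise the 8 with the largest change and libraries that did not overlap, the 5 highest and 5 lowest levels per assay, the 3 highest and 3 lowest ratios, and at most 5 called genes of each other list. Gene names came from the deposited tables. Span came from RefSeq (99.1% of transcripts matched), of another build than the files, and was used only as a length. Overlapping protein-coding genes, 20 members in RefSeq, and named pseudogene copies, 4 members, leave counts uncertain. Mrpl2, Mrpl14, Mrps6 and Mrps18a, called in other comparisons than footprints at 21 h against PBS, are among those with an overlap. Mrps36 has 3 named pseudogene copies. Replicates of a group correlated with r of 0.986 to 0.990 in footprints and 0.968 to 0.975 in RNA (log2 scale) and differed by more than sampling noise. Libraries with the same replicate number did not deviate together (correlations of -0.014 to 0.021), so numbers were not taken as pairs. The full genotype of the line is not reported here.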

Additional observations from a re-analysis of the deposited data

Results flagged for a closer look

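Values that differed between the 2 times of Cis treatment, as tested by limma at 21 h against 6 h, are given here as log2 changes with no explanation. In footprints the higher members at 21 h were Mrps10 (1.21), Mrps31 (0.85), Mrpl49 (0.72), Mrpl32 (0.69), Mrps2 (0.64), Mrpl10 (0.58), Mrpl16 (0.56), Mrpl22 (0.52), Mrps11 (0.51), Mrps23 (0.43), Mrpl9 (0.41), Mrpl45 (0.38), Mrpl51 (0.35), Mrpl38 (0.35), Mrpl50 (0.35), Mrps18a (0.34), Mrpl3 (0.33) and Mrpl35 (0.28). The lower members were Mrps28 (-1.36), Mrps36 (-0.78), Mrpl48 (-0.69), Mrpl11 (-0.60), Mrps5 (-0.56), Mrps21 (-0.56), Mrpl15 (-0.50), Mrpl14 (-0.43), Mrps6 (-0.39), Mrpl39 (-0.35) and Mrps33 (-0.33). Of these 29 calls, 7 were kept under all 9 other settings and without each library, namely Mrpl11, Mrpl32, Mrpl49, Mrps10, Mrps28, Mrps31 and Mrps36.

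In RNA the higher members were Mrps31 (0.80), Mrpl10 (0.57), Mrpl16 (0.51) and Mrpl53 (0.48), and the lower ones Mrps28 (-1.23) and Mrpl2 (-0.53). Of these 6 calls, 0 were kept under every other setting and without each library.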

How the results depend on the processing

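No called member reversed its direction under any setting run, and members not called were not checked for this. The median change of the members was also taken in each setting. In 109 cases it stayed within the spread of this median between replicate libraries, and in 23 it moved further. Counts of called members moved by over 1.5 times in these cases. At 6 h in footprints (2 called), 1 was called without the filter, 0 without the eBayes trend, 4 with only the compared groups in the model (5.13% of members, against 4.26% of all transcripts) and 9 by voom (11.5%, against 12.3%), and leaving out a library gave 0 to 4. Without the trend, 13 were called in place of 24 at 21 h and 13 in place of 29 from 6 h to 21 h in footprints, and 5 in place of 11 at 21 h and 1 in place of 6 from 6 h to 21 h in RNA. Without the filter, RNA gave 7 at 21 h and 1 from 6 h to 21 h. The latter became 13 without scaling, which shifted the median of all transcripts from 0.01 to 0.15, and 3 with only the compared groups. In TE at 21 h, voom called 1.

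Leaving out each library gave 16 to 23 calls in footprints at 21 h, 10 to 26 from 6 h to 21 h, 3 to 15 in RNA at 21 h, 0 to 3 from 6 h to 21 h, and 0 in RNA at 6 h and in TE at both times. The low counts came without 6 h replicate 2 (10) or replicate 1 (13) in footprints from 6 h to 21 h, and without PBS replicate 2 (3) in RNA at 21 h. A lone library was assumed to vary like the other groups.

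With the replicate number as a block, although the numbers showed no pairing, the counts were 1 and 22 in footprints at 6 h and 21 h, 25 from 6 h to 21 h, 0 and 11 in RNA at 6 h and 21 h, 5 from 6 h to 21 h, and 0 in TE at both times. The cause of these shifts was not tested. RNA reads of members, as few as 6 in a library, limit what RNA and TE can show.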
